A study of Homo sapiens with 4 samples.

Results

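The genes described here are 42 components of homologous recombination and the Fanconi anemia pathway, among 22637 genes measured by RNA-seq in 4 human prostate cancer cell lines. They were chosen by name, and all 42 were present in the deposited table. LNCaP, an androgen-responsive line, is castration-sensitive. Its derivative C4-2B is castration-resistant. LN-OlapR was derived from LNCaP and 2B-OlapR from C4-2B, each by chronic exposure to increasing doses of olaparib, an inhibitor of the DNA damage sensors PARP1 and PARP2. All lines were labelled as untreated prostatic adenocarcinoma, and cells were plated without a selection agent before RNA was taken. The paper states that the resistant lines were maintained in medium with olaparib. Drug exposure in culture therefore cannot be told apart from resistance in these comparisons. Each line is represented by 1 library, so no difference below has a replicate check, no p-value is given, and a difference between cultures cannot be told apart from a difference between lines.

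Homologous recombination repairs double-strand breaks by copying the sister chromatid. Broken ends are resected to single-stranded DNA, BRCA1, PALB2 and BRCA2 load a recombinase onto it, and the recombinase searches for the matching duplex. The Fanconi anemia pathway detects crosslinks between DNA strands, attaches ubiquitin to the FANCD2 and FANCI proteins there and hands the resulting breaks to recombination. Cells that lack these functions are sensitive to PARP inhibitors, which is why loss of these genes is used to select patients for olaparib.

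Libraries held 19950537 to 26394267 counts, and the 42 genes took 0.165% to 0.176% of them. Levels are given as normalized CPM, which are counts divided by the TMM-scaled library size, and the log2 ratio of a pair of libraries was computed after adding 0.5 counts to each. Intervals in parentheses are 95% intervals from the counts and cover counting error only, since reads without molecular identifiers are not independent molecules. All 9 markers of luminal prostate epithelium were above 3 counts in every library. Of these, KLK3 stood apart in LNCaP with 53.1 normalized CPM against 1870 to 2685 in the other lines. KLK2 was also lowest in LNCaP, at 126 against 233 to 748, and none of the other luminal markers was lowest there. For other cell types, 1 of 3 basal, 1 of 4 fibroblast, 1 of 3 endothelial and 1 of 3 leukocyte markers were in the table. Their levels were 0.112 to 0.557 normalized CPM for KRT14, 7.14 to 16.1 for COL1A1, 2.61 to 12.2 for VWF and 0.409 to 5.14 for CD68, and KRT5, TP63, PECAM1 and PTPRC were not in it.

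All 42 genes were expressed in all lines, from 64 counts upward, and all passed the filter of a mean of at least 1 normalized CPM in each comparison. Their median level was 34.7 normalized CPM in LNCaP against 32.5 in LN-OlapR, and 31.3 in C4-2B against 31.1 in 2B-OlapR. The level of the highest line exceeded that of the lowest by 1.40-fold in the median gene. It ranged from 1.11-fold for EME1, a junction nuclease subunit, to 2.11-fold for BRIP1, a helicase that binds BRCA1. For 27 genes the highest and lowest lines lay within 1.5-fold of each other, and BRIP1 was the 1 gene past 2-fold. LNCaP had the highest level for 18 of the genes, and 2B-OlapR had the lowest for 16. The matching shares over all genes were not computed, so these counts are not read as a trait of the repair genes.

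Compared per length, as normalized CPM per kilobase of the longest coding transcript averaged over the 4 lines, the highest levels were 26.8 for FANCI, 25.8 for the recombinase paralog XRCC3, 23.7 for FANCG and 22.5 for RAD51C. The lowest were 1.66 for RAD51B, 1.73 for the junction resolvase GEN1, 1.94 for FANCB and 2.01 for FANCM. BRCA1 had 10.1 and BRCA2 had 3.49 on the same scale. The transcripts in use in these cells were not measured, so this order rests on annotated lengths.

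**Figure D1:**
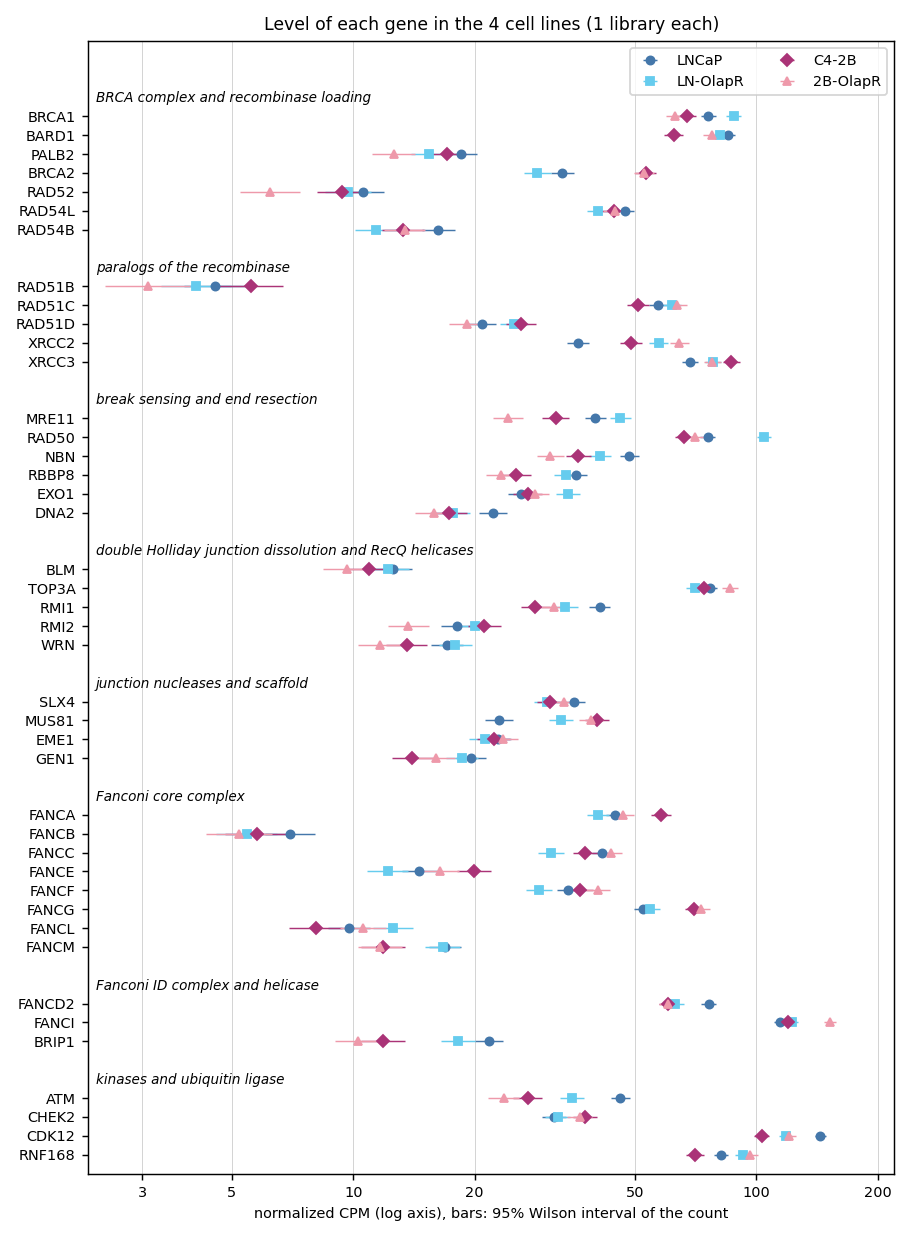
Level of each of the 42 genes in the 4 libraries, in normalized CPM on a log axis, with genes grouped by role; points are single libraries and bars are 95% Wilson intervals of the count. RAD51B has the lowest level in every line, and for 27 genes the 4 points lie within 1.5-fold of each other.

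To ask whether resistant cells differed from the cells they came from, 2B-OlapR was compared with C4-2B (the C4-2B pair) and LN-OlapR with LNCaP (the LNCaP pair), and a positive log2 ratio means a higher level in the resistant line. RAD51B, RMI2 and RAD52 were at least 1.5-fold lower in 2B-OlapR and no gene was 1.5-fold higher, a count of 3 lower and 0 higher of 42. RAD52 was just past that limit, and the count was 2 with DESeq2 or upper quartile scaling or a pseudocount of 2. Across all 15527 genes analysed, 13.5% were at least 1.5-fold lower and 10.7% at least 1.5-fold higher. The median log2 ratio of the 42 genes was -0.02, with quartiles of -0.21 and 0.15, beside a median of 0.00 with quartiles of -0.32 and 0.28 over all genes. Of the 42 genes, 20 were above 0, and the median was 0.003 with upper quartile scaling. The counting interval lay above 0 for 10 genes, below 0 for 11 and included 0 for 21. Over all genes it lay above 0 for 31.5% and below 0 for 30.8%.

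In the LNCaP pair, XRCC2 was at least 1.5-fold higher and no gene was 1.5-fold lower, a count of 1 higher and 0 lower of 42. Across all 15373 genes analysed in that pair, 10.6% were at least 1.5-fold higher and 10.8% lower. The median log2 ratio of the 42 genes was -0.09, with quartiles of -0.25 and 0.14, beside 0.00 with quartiles of -0.27 and 0.26 over all genes. The interval lay above 0 for 12 genes, below 0 for 18 and included 0 for 12. Over all genes it lay above 0 for 31.7% and below 0 for 31.3%. No member reached 2-fold in either pair.

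The 42 genes therefore had a share past 1.5-fold of 7.14% in the C4-2B pair and 2.38% in the LNCaP pair, below the 24.2% and 21.4% of all genes. Part of that background consists of genes with few counts. Among genes with a mean of 10 to 200 normalized CPM, a range chosen after the values were seen to hold most members, the shares past 1.5-fold were 15.4% and 12.6%. These shares were set side by side without a test.

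**Figure D2:**
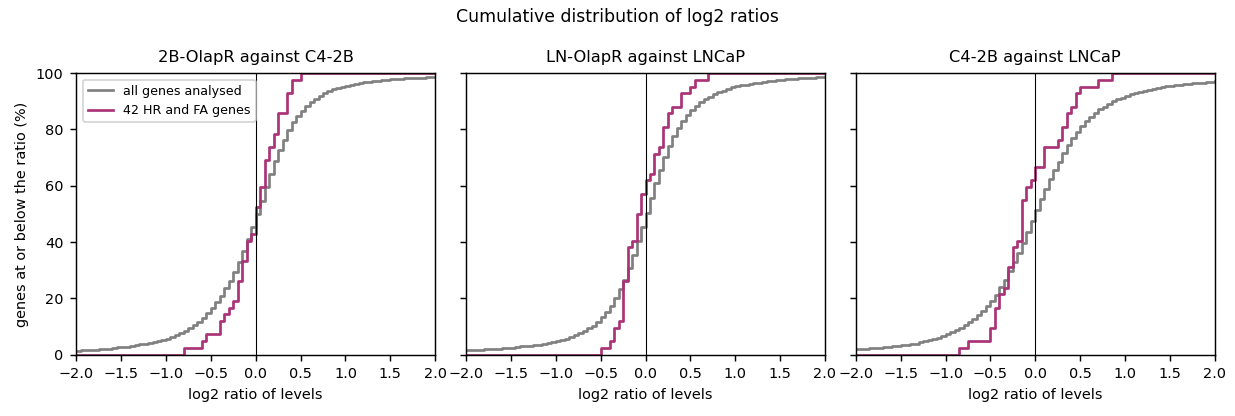
Cumulative share of genes, in percent, at or below each log2 ratio, for the 42 genes (HR, homologous recombination; FA, Fanconi anemia) and for all genes analysed, in 3 comparisons of single libraries. In the C4-2B and LNCaP pairs the curve of the 42 genes is steeper than that of all genes, with ratios from -0.85 to 0.46 and from -0.52 to 0.66.

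The paralogs of the recombinase, which form complexes that help it assemble on DNA, held the lowest ratio of the C4-2B pair and the highest of the LNCaP pair. XRCC2 (GENCODE release 29, GRCh38, chr7:152644779-152676165, minus strand) was higher in both resistant lines. XRCC2 stood at 36.1 normalized CPM in LNCaP against 57.2 in LN-OlapR, and at 48.9 in C4-2B against 64.4 in 2B-OlapR. Its log2 ratio was 0.66 (0.54 to 0.78) in the LNCaP pair, or 1.58-fold, and 0.40 (0.28 to 0.51) in the C4-2B pair, or 1.32-fold. The intervals of both ratios excluded 0, and under scaling by total counts the LNCaP-pair ratio was just under 1.5-fold.

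RAD51B (chr14:67819779-68730218, plus strand), which forms a complex with RAD51C, RAD51D and XRCC2, was lowest in 2B-OlapR. RAD51B stood at 4.54 normalized CPM in LNCaP against 4.07 in LN-OlapR, and at 5.57 in C4-2B against 3.09 in 2B-OlapR, from 122, 95, 114 and 64 counts in that order. A log2 ratio of -0.85 (-1.29 to -0.41) separated the lines of the C4-2B pair, which is 1.80-fold lower in 2B-OlapR. In the LNCaP pair it was -0.15 (-0.54 to 0.23), a difference not detectable at this depth. RAD51B had the fewest counts of the 42 genes, and its interval was the widest.

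RAD51C, a paralog found in both paralog complexes, was higher in both resistant lines. RAD51C stood at 57.1 normalized CPM in LNCaP against 61.6 in LN-OlapR, and at 50.9 in C4-2B against 63.7 in 2B-OlapR, with log2 ratios of 0.32 (0.21 to 0.44) in the C4-2B pair and 0.11 (0.01 to 0.21) in the LNCaP pair. RAD51D and XRCC3 differed in opposite directions in the pairs. RAD51D stood at 20.8 normalized CPM in LNCaP against 25.1 in LN-OlapR, and at 26.0 in C4-2B against 19.1 in 2B-OlapR, so the resistant line was higher in the LNCaP pair (0.27, 0.10 to 0.43) and lower in the C4-2B pair (-0.45, -0.63 to -0.26). XRCC3 stood at 68.6 normalized CPM in LNCaP against 77.9 in LN-OlapR, and at 86.7 in C4-2B against 77.7 in 2B-OlapR. KLC1, on the other strand, shares exon positions with XRCC3. Its log2 ratios were -0.24 in the LNCaP pair and -0.41 in the C4-2B pair, and its part in the XRCC3 counts was not tested. Of the 5 paralogs, 4 were above 0 in the LNCaP pair and 2 in the C4-2B pair.

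The next group comprised the BRCA complex and factors that load or assist the recombinase. BRCA1, a ubiquitin ligase subunit that promotes resection, stood at 75.9 normalized CPM in LNCaP against 87.9 in LN-OlapR, and at 67.1 in C4-2B against 63.0 in 2B-OlapR. Its log2 ratio was 0.21 (0.12 to 0.30) in the LNCaP pair and -0.09 (-0.20 to 0.02) in the C4-2B pair, where the interval included 0. A gene on the same strand, ENSG00000267002, shares exon positions with BRCA1 and had ratios of 0.45 and -0.46, and its part in the BRCA1 counts was not tested. BRCA2, which carries the recombinase to single-stranded DNA, stood at 33.0 normalized CPM in LNCaP against 28.6 in LN-OlapR, and at 53.2 in C4-2B against 52.6 in 2B-OlapR. BRCA2 thus differed more between the backgrounds than between resistant and parental cells, with log2 ratios of -0.20 (-0.35 to -0.06) in the LNCaP pair and -0.02 (-0.14 to 0.11) in the C4-2B pair.

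PALB2, the bridge between BRCA1 and BRCA2, was lower in both resistant lines. PALB2 stood at 18.5 normalized CPM in LNCaP against 15.4 in LN-OlapR, and at 17.1 in C4-2B against 12.6 in 2B-OlapR, with log2 ratios of -0.27 (-0.46 to -0.07) and -0.44 (-0.67 to -0.21) in the LNCaP and C4-2B pairs. RAD52, which anneals single strands, stood at 10.6 normalized CPM in LNCaP against 9.69 in LN-OlapR, and at 9.38 in C4-2B against 6.23 in 2B-OlapR. Its log2 ratio in the C4-2B pair was -0.59 (-0.91 to -0.27), or 1.51-fold lower, and in the LNCaP pair -0.13 (-0.38 to 0.12). In the C4-2B pair it was short of 1.5-fold with DESeq2 scaling, upper quartile scaling (-0.56) and a pseudocount of 2. An unnamed gene on the same strand, ENSG00000250132, shares exon positions with RAD52, and it went from 2.44 normalized CPM in C4-2B to 1.11 in 2B-OlapR. The share of RAD52 reads that came from it was not tested.

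RAD54B, a motor protein that remodels DNA during strand exchange, had the lowest ratio of the LNCaP pair. RAD54B stood at 16.3 normalized CPM in LNCaP against 11.4 in LN-OlapR, and at 13.3 in C4-2B against 13.4 in 2B-OlapR, a log2 ratio of -0.52 (-0.74 to -0.30) in the LNCaP pair and 0.01 (-0.23 to 0.25) in the C4-2B pair. FSBP, on the same strand, shares exon positions with RAD54B and had a log2 ratio of -0.18 in the LNCaP pair. The related RAD54L had ratios of -0.22 (-0.34 to -0.09) and 0.01 (-0.12 to 0.14). BARD1, the partner of BRCA1, was higher in 2B-OlapR by 0.32 (0.21 to 0.42) on the log2 scale, and its LNCaP-pair ratio was -0.07 (-0.16 to 0.02). In this group of 7 genes, 1 was above 0 in the LNCaP pair and 3 in the C4-2B pair, the second count being 1 under scaling by total counts and 4 under upper quartile scaling.

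**Figure D3:**
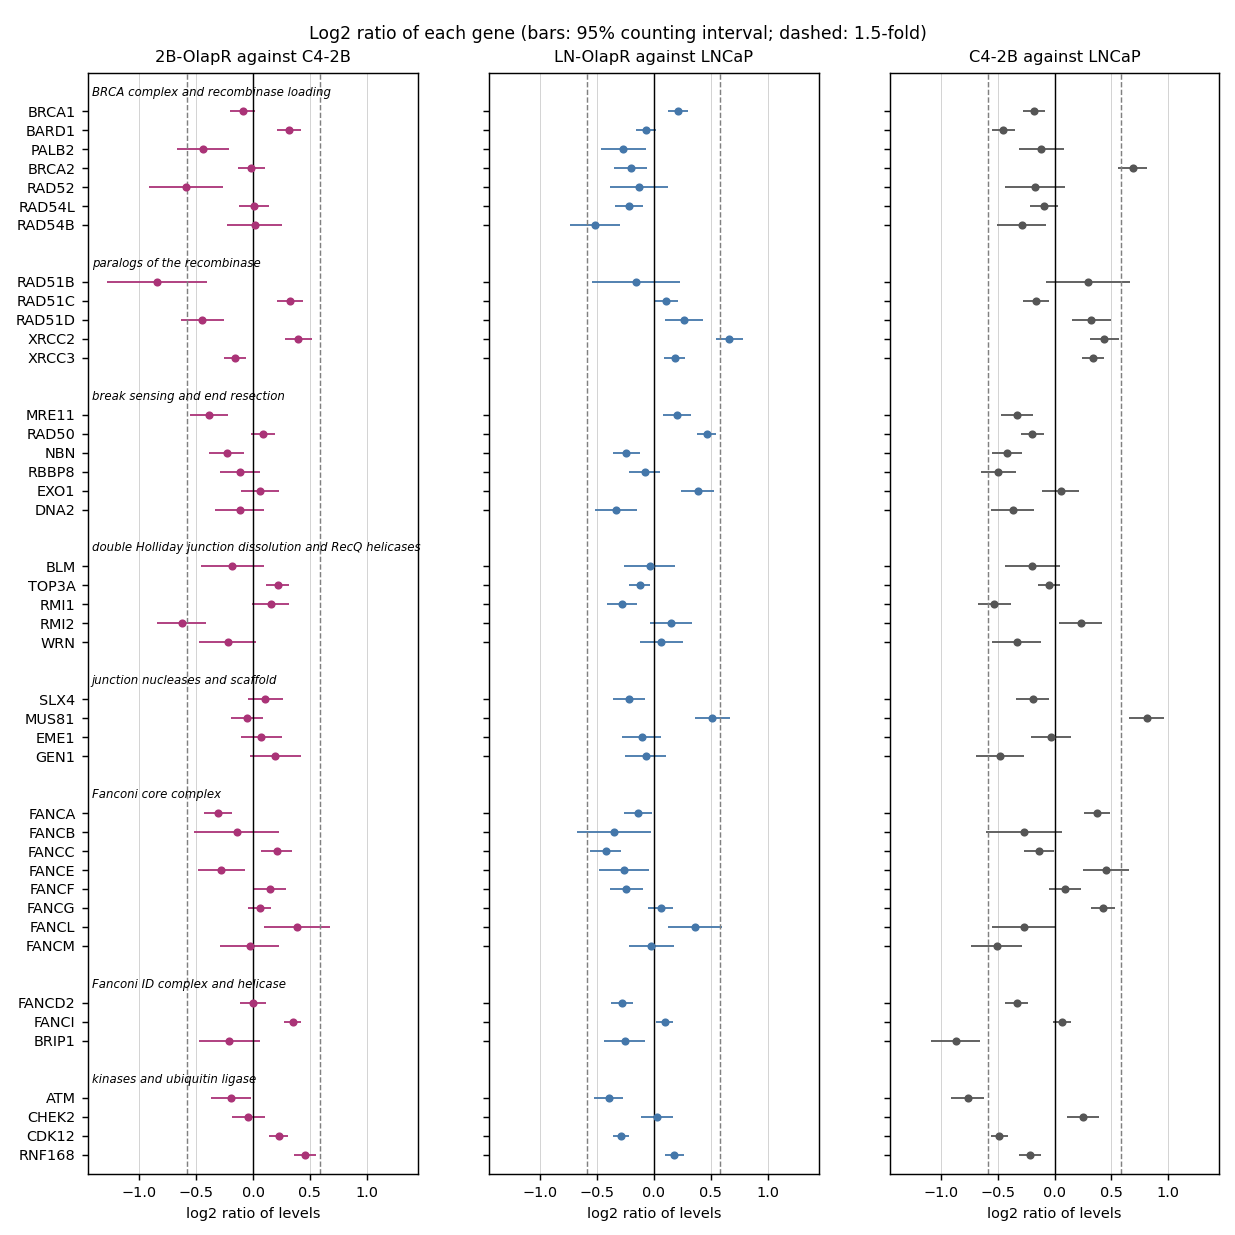
Log2 ratio of levels for each of the 42 genes in 3 comparisons of single libraries, with genes grouped by role; bars are 95% counting intervals, the solid line marks equal levels and dashed lines mark 1.5-fold. RAD51B, RMI2 and RAD52 lie past the lower line in the C4-2B pair, XRCC2 lies past the upper line in the LNCaP pair, and 4 genes lie past a line between the parental lines.

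MRE11, RAD50 and NBN form the complex that binds broken ends and starts resection, and its subunits differed in different ways. MRE11, the nuclease, stood at 39.8 normalized CPM in LNCaP against 46.0 in LN-OlapR, and at 31.8 in C4-2B against 24.2 in 2B-OlapR, with opposite log2 ratios of 0.21 (0.08 to 0.33) in the LNCaP pair and -0.39 (-0.56 to -0.22) in the C4-2B pair. RAD50, the ATPase that tethers the ends, stood at 75.7 normalized CPM in LNCaP against 104 in LN-OlapR, and at 66.1 in C4-2B against 70.4 in 2B-OlapR. RAD50 was therefore 1.38-fold higher in the resistant line of the LNCaP pair, with a log2 ratio of 0.46 (0.38 to 0.55). Its C4-2B-pair ratio of 0.09 (-0.02 to 0.20) was within counting error. A gene on the same strand, ENSG00000283782, shares exon positions with RAD50. That gene stood at 10.3 normalized CPM in LNCaP against 3.82 in LN-OlapR, and at 4.06 in C4-2B against 4.97 in 2B-OlapR. Its part in the RAD50 counts was not tested. NBN was lower in both resistant lines, with ratios of -0.24 (-0.36 to -0.12) and -0.23 (-0.38 to -0.08) in the LNCaP and C4-2B pairs.

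Among genes of later resection, the exonuclease EXO1 was higher in LN-OlapR by 0.38 (0.24 to 0.53) on the log2 scale, and the nuclease-helicase DNA2 had a ratio of -0.33 (-0.51 to -0.15) in the same pair. In the C4-2B pair the intervals of EXO1 and DNA2 included 0. RBBP8, which activates MRE11, had intervals that included 0 in both pairs. MRE11, RBBP8, FANCD2 and CHEK2 have annotated pseudogenes, so reads could have been shared with these copies.

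BLM, TOP3A, RMI1 and RMI2 form the complex that dissolves double Holliday junctions without crossing over. RMI2, its smallest subunit, stood at 18.0 normalized CPM in LNCaP against 20.1 in LN-OlapR, and at 21.2 in C4-2B against 13.7 in 2B-OlapR. The log2 ratio of RMI2 was -0.63 (-0.84 to -0.41) in the C4-2B pair, or 1.54-fold lower, and 0.15 (-0.03 to 0.34) in the LNCaP pair. TOP3A, the topoisomerase, stood at 76.6 normalized CPM in LNCaP against 70.3 in LN-OlapR, and at 74.2 in C4-2B against 86.1 in 2B-OlapR. Within the complex, 2B-OlapR thus had less RMI2 and more TOP3A mRNA than C4-2B, while the intervals of BLM and RMI1 included 0 in that pair. In the LNCaP pair RMI1 had -0.28 (-0.42 to -0.15) and TOP3A -0.12 (-0.22 to -0.03). WRN, a RecQ helicase related to BLM, had -0.22 (-0.47 to 0.02) in the C4-2B pair and 0.07 (-0.12 to 0.26) in the LNCaP pair.

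For the nucleases that cut junctions, the clearest difference was in the LNCaP pair. MUS81, the catalytic subunit, stood at 23.0 normalized CPM in LNCaP against 32.8 in LN-OlapR, and at 40.2 in C4-2B against 38.9 in 2B-OlapR. LNCaP was the low line, and the log2 ratio was 0.51 (0.36 to 0.67) in the LNCaP pair and -0.05 (-0.19 to 0.09) in the C4-2B pair. MUS81 shares exon positions with CFL1 on the other strand, which stood at 716, 799, 970 and 1042 normalized CPM in the same order of lines, and whether the counting used strand is not given in the sources used here. The intervals of EME1 and GEN1 included 0 in both pairs, and SLX4, the scaffold, had -0.22 (-0.36 to -0.08) in the LNCaP pair and 0.11 (-0.05 to 0.26) in the C4-2B pair.

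The Fanconi core complex is the ubiquitin ligase that modifies FANCD2 and FANCI. FANCL, its catalytic subunit, was higher in both resistant lines: FANCL stood at 9.75 normalized CPM in LNCaP against 12.5 in LN-OlapR, and at 8.06 in C4-2B against 10.6 in 2B-OlapR. Its log2 ratios were 0.36 (0.12 to 0.60) in the LNCaP pair and 0.39 (0.10 to 0.68) in the C4-2B pair. FANCA and FANCE were lower in both, with ratios from -0.31 to -0.14. FANCA shares exon positions with ZNF276 on the other strand. ZNF276 stood at 45.1 normalized CPM in LNCaP against 42.8 in LN-OlapR, and at 56.8 in C4-2B against 49.1 in 2B-OlapR. FANCL shares exon positions with VRK2 on the other strand, at 8.25 to 12.5 normalized CPM. The part of shared reads in FANCA and FANCL was not tested. FANCC and FANCF, subunits of the same subcomplex, were both higher in 2B-OlapR and both lower in LN-OlapR than in the parental line.

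FANCC stood at 41.4 normalized CPM in LNCaP against 30.9 in LN-OlapR, and at 37.7 in C4-2B against 43.5 in 2B-OlapR. FANCF stood at 34.2 normalized CPM in LNCaP against 28.9 in LN-OlapR, and at 36.5 in C4-2B against 40.4 in 2B-OlapR. Both were lowest in LN-OlapR and highest in 2B-OlapR. FANCB had a log2 ratio of -0.35 (-0.68 to -0.03) in the LNCaP pair from 187 and 127 counts, and the intervals of FANCG and FANCM included 0 in both pairs. Of the 8 core genes, 2 were above 0 in the LNCaP pair and 4 in the C4-2B pair.

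FANCI and FANCD2 are the substrates of the core complex and are clamped onto DNA as a pair, but their mRNA ratios differed. FANCI had log2 ratios of 0.35 (0.27 to 0.42) in the C4-2B pair and 0.10 (0.02 to 0.17) in the LNCaP pair. POLG, on the other strand, shares exon positions with FANCI and had ratios of 0.17 and -0.23, and its part in the FANCI counts was not tested. FANCD2 was lower in LN-OlapR, with -0.28 (-0.38 to -0.18), and level in the C4-2B pair, with 0.00 (-0.11 to 0.11). BRIP1 had -0.26 (-0.44 to -0.08) in the LNCaP pair and -0.21 (-0.47 to 0.06) in the C4-2B pair.

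The remaining genes are regulators. RNF168, the ubiquitin ligase that marks chromatin around breaks, had the highest ratio of the C4-2B pair. RNF168 stood at 81.7 normalized CPM in LNCaP against 92.6 in LN-OlapR, and at 70.3 in C4-2B against 96.4 in 2B-OlapR, with log2 ratios of 0.46 (0.36 to 0.55) in the C4-2B pair and 0.18 (0.09 to 0.27) in the LNCaP pair. ATM, the kinase activated by double-strand breaks, was lower in both resistant lines: ATM stood at 46.0 normalized CPM in LNCaP against 34.9 in LN-OlapR, and at 27.1 in C4-2B against 23.6 in 2B-OlapR. Its ratios were -0.40 (-0.52 to -0.27) and -0.20 (-0.37 to -0.02) in the LNCaP and C4-2B pairs, and the second interval included 0 with upper quartile scaling.

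CDK12, a kinase of RNA polymerase II that sustains transcription of long DNA repair genes, differed in opposite directions. CDK12 stood at 144 normalized CPM in LNCaP against 118 in LN-OlapR, and at 103 in C4-2B against 120 in 2B-OlapR. Its log2 ratio was -0.29 (-0.36 to -0.22) in the LNCaP pair and 0.22 (0.14 to 0.31) in the C4-2B pair. CHEK2, the checkpoint kinase downstream of ATM, had intervals that included 0 in both pairs.

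The LNCaP and C4-2B pairs share no library, so their ratios were set side by side. XRCC2, RAD51C, FANCI, FANCL and RNF168 had intervals above 0 in both pairs, and PALB2, NBN, FANCA, FANCE and ATM had intervals below 0 in both. Another 7 genes had intervals on opposite sides of 0: CDK12, FANCC, FANCF and TOP3A were higher in 2B-OlapR and lower in LN-OlapR, and MRE11, RAD51D and XRCC3 were the reverse. With scaling by total counts, the LNCaP-pair intervals of RAD51C and FANCI included 0, and with upper quartile scaling the C4-2B-pair interval of ATM did. Of the 14602 genes analysed in both pairs, 14.1% had intervals above 0 in both, 13.2% below 0 in both and 16.3% on opposite sides. For 8 genes both intervals included 0. The sign of the ratio was the same in both pairs for 52.4% of the 42 genes and for 57.6% of all genes analysed in both. Across the 42 genes the Spearman correlation of the ratios was 0.13, which is a description over genes of 4 libraries.

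**Figure D4:**
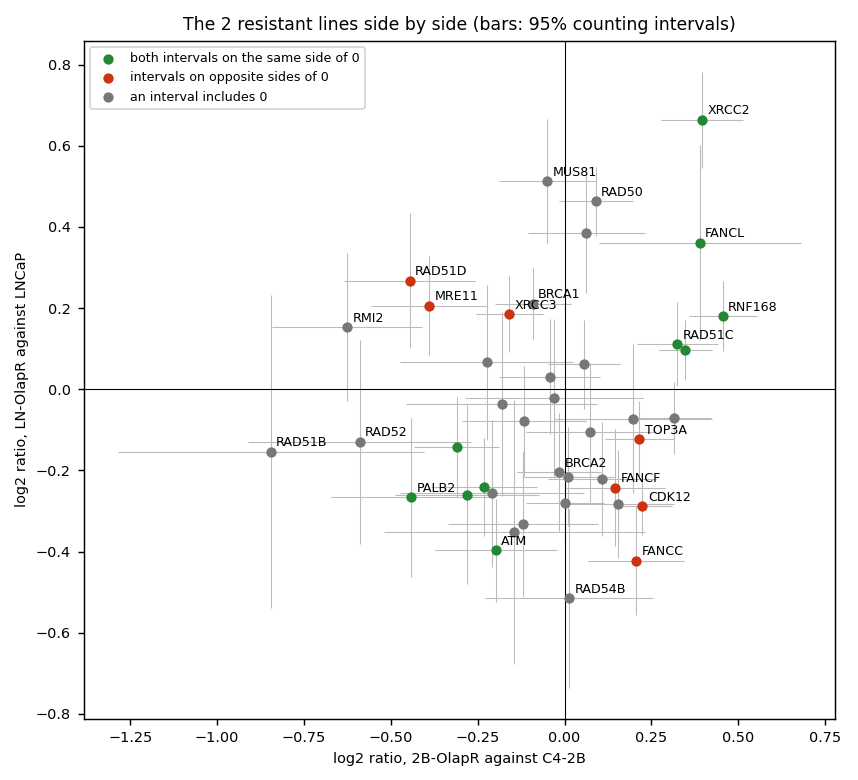
Log2 ratio of each of the 42 genes in the C4-2B pair (x axis) against the LNCaP pair (y axis), with 95% counting intervals as bars and genes with values in every library labelled; green points have both intervals on the same side of 0, red points on opposite sides. The 5 genes higher in both lie at the upper right with XRCC2 farthest out, the 5 lower in both at the lower left, and the 7 with opposite directions at the upper left and lower right.

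C4-2B was then compared with LNCaP, the line it was derived from. This comparison shares LNCaP with the LNCaP pair and C4-2B with the C4-2B pair, so its ratios are not independent of theirs. MUS81 and BRCA2 were at least 1.5-fold higher in C4-2B, and BRIP1 and ATM at least 1.5-fold lower, 2 of 42 in each direction. The background was 16.1% higher and 16.1% lower of 15580 genes. The median log2 ratio of the 42 genes was -0.18, beside -0.02 over all genes. Of the 42 genes 14 were above 0, beside 48.6% of all genes.

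BRCA2 had a log2 ratio of 0.69 (0.56 to 0.82) between the parental lines, or 1.61-fold, and MUS81 had 0.81 (0.66 to 0.96), or 1.75-fold. ATM was 1.70-fold lower in C4-2B, with -0.76 (-0.91 to -0.62). BRIP1 was 1.83-fold lower, with -0.87 (-1.09 to -0.65), and stood at 21.7 normalized CPM in LNCaP against 18.2 in LN-OlapR, and at 11.9 in C4-2B against 10.3 in 2B-OlapR. For all 4 of these genes both lines of the LNCaP background lay on one side and both lines of the C4-2B background on the other. The 6 genes of break sensing and resection had a median of -0.35 between the parental lines, with 5 intervals below 0, and the 5 recombinase paralogs had a median of 0.32, with 3 intervals above 0 and 1 below. Over all genes 34.1% of intervals lay above 0 and 36.2% below in this comparison.

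Promoter windows of these genes were taken from RefSeq (GRCh38.p14), which held 1 or 2 windows for 36 of the 42 genes. Each window was read from 250 bases before the annotated start to 30 bases after it. The words searched on both strands were TTTCCCGC, TTTGGCGC, TTTCGCGC and TTTGCCGC, which resemble the site of the cell cycle factor E2F. CCGGAAGT of ETS factors, a word of NRF1 and CCAAT of NF-Y were searched in the same way. The NRF1 word allowed any base at a central position, so a match need not be a palindrome. The E2F words were found for 7 of 36 genes, or 19.4%, against 6.52% of 10175 genes analysed and 3.82% of all 27305 genes with a window. The ETS word was found for 22.2% against 10.4% and 4.88%, the NRF1 word for 19.4% against 14.1% and 6.88%, and CCAAT for 41.7% against 43.2% and 38.7%. A match describes the letters and not a bound factor, and no test was made of these shares.

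The genes with an E2F word were EXO1, FANCA, FANCC, FANCD2, GEN1, RMI1 and XRCC2. They lay on both sides of 0 in each comparison. In the C4-2B pair 6 of 7 were above 0, from -0.31 to 0.40, and in the LNCaP pair 2 of 7, from -0.42 to 0.66. The C4-2B-pair intervals of FANCC and XRCC2 lay above 0, that of FANCA lay below, and the rest included 0. In the LNCaP pair those of EXO1 and XRCC2 lay above 0, that of GEN1 included 0, and the rest lay below. Of the 29 genes with a window and no such word, 12 and 11 were above 0 in the C4-2B and LNCaP pairs. Over all genes analysed, 7761 of 15527 and 7625 of 15373 were. Below are the windows of the genes with the highest and the lowest log2 ratio in the C4-2B pair (RNF168 and PALB2) and in the LNCaP pair (XRCC2 and FANCB), among genes with exactly 1 window, to show the promoter sequence at each end of the ratios. They lie on the minus strand at chr3:196503739-196504018, chr16:23641281-23641560, chr7:152676112-152676391 and chrX:14873040-14873319, and are written from 5′ to 3′ with matches to the words in capitals.
RNF168: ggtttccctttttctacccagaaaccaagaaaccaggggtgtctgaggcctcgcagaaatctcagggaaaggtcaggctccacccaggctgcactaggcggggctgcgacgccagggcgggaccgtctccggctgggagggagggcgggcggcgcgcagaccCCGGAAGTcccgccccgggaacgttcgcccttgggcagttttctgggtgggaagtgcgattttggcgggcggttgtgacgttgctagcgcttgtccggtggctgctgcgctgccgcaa
PALB2: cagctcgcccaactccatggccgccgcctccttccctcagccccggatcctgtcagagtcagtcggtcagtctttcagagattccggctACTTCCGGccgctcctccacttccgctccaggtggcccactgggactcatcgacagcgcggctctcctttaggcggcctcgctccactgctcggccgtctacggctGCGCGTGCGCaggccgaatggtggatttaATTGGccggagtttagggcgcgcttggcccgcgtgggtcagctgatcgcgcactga
XRCC2: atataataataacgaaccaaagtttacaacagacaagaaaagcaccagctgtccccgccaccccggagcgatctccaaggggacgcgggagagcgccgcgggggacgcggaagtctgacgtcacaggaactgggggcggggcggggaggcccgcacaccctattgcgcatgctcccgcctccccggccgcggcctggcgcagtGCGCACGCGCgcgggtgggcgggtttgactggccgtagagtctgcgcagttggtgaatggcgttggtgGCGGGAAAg
FANCB: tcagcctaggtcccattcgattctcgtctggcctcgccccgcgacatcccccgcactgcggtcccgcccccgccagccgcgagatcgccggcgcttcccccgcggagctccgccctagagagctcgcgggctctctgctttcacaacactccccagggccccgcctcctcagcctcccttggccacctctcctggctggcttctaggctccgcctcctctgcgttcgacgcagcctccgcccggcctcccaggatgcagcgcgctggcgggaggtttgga

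XRCC2 had the E2F word just after its start and an NRF1 word before it. RNF168 had 1 ETS word. PALB2 had 3 matches, to the ETS, NRF1 and CCAAT words, and FANCB had none of the words in this window.

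Other genes of the same pathways were counted from a separate list of 52 genes, of which 51 were in the table. In the C4-2B pair 49 of them were analysed, with 2 at least 1.5-fold higher, 1 lower and a median of 0.06. In the LNCaP pair 51 were analysed, with 3 higher, 1 lower and a median of -0.07. Over all genes 10.7% were higher and 13.5% lower by 1.5-fold in the C4-2B pair, and 10.6% and 10.8% in the LNCaP pair. EME2, a partner of MUS81 in a nuclease related to MUS81-EME1, was higher in both resistant lines. EME2 stood at 27.0 normalized CPM in LNCaP against 59.3 in LN-OlapR, and at 31.5 in C4-2B against 51.8 in 2B-OlapR, or 2.19-fold higher in the LNCaP pair and 1.64-fold in the C4-2B pair, with log2 ratios of 1.13 and 0.72. It shares exon positions with SPSB3 on the other strand, at 10.1 to 13.1 normalized CPM. Between the parental lines 50 genes of the list were analysed, with 3 higher, 5 lower and a median of -0.13. Over all genes 16.1% were higher and 16.1% lower there. The higher genes were RTEL1, FAAP20 and H2AX, with ratios of 0.59 to 0.80, and the lower ones BRCC3, HELB, MCM9, MCM8 and FAN1, with -1.33 to -0.60, all named after their values were seen.

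TP53BP1, which protects broken ends from resection and counteracts BRCA1, was lowest in 2B-OlapR. TP53BP1 stood at 61.2 normalized CPM in LNCaP against 74.5 in LN-OlapR, and at 53.4 in C4-2B against 30.8 in 2B-OlapR, a log2 ratio of -0.79 (-0.93 to -0.65) in the C4-2B pair and 0.28 (0.19 to 0.38) in the LNCaP pair. In the C4-2B pair it was 1.73-fold lower, while RNF168, whose ubiquitin mark recruits its protein, was 1.37-fold higher. TONSL, a factor of replication-linked recombination, stood at 70.5 normalized CPM in LNCaP against 69.9 in LN-OlapR, and at 91.3 in C4-2B against 144 in 2B-OlapR, with a ratio of 0.66 (0.58 to 0.74) in the C4-2B pair.

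The other genes past 1.5-fold were seen in the LNCaP pair. WDR48, a cofactor of the enzyme that removes ubiquitin from FANCD2, stood at 22.3 normalized CPM in LNCaP against 14.5 in LN-OlapR, and at 17.6 in C4-2B against 17.2 in 2B-OlapR. ABRAXAS1, a scaffold of a BRCA1 complex, stood at 3.61 normalized CPM in LNCaP against 5.62 in LN-OlapR, and at 2.98 in C4-2B against 2.85 in 2B-OlapR, and its LNCaP-pair ratio was 0.64 (0.26 to 1.01). RADX, a single-strand binding protein at replication forks, had 17 counts in LNCaP against 34 in LN-OlapR, and 1 in C4-2B against 37 in 2B-OlapR. Its ratio was 1.18 (0.35 to 2.01) in the LNCaP pair. In the C4-2B pair it did not pass the expression filter, and its ratio of 4.63 (2.27 to 6.98) rests on 1 count in C4-2B and depends on the pseudocount.

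Of the 14 genes in which alterations select patients with prostate cancer for olaparib, 13 are among the 42 and the other is CHEK1. Of these 14, 6 were above 0 in the C4-2B pair, with a median log2 ratio of -0.03, and 5 in the LNCaP pair, with a median of -0.18. Between the parental lines the median was -0.15. RAD51B in the C4-2B pair was the 1 gene of the panel past 1.5-fold in either pair. Of all genes analysed, 24.2% were past 1.5-fold in the C4-2B pair and 21.4% in the LNCaP pair. Between the parental lines 3 of the 14 panel genes were past 1.5-fold, beside 32.1% of all genes. The numbers above 0 over all genes were 7761 of 15527 in the C4-2B pair and 7625 of 15373 in the LNCaP pair.

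Many recombination genes are expressed mainly in S and G2 phase, so 2 lists of cell cycle genes were read beside them. The 25 genes of S phase had a median log2 ratio of 0.14 in the C4-2B pair and -0.04 in the LNCaP pair. The 20 genes of G2 and mitosis had medians of 0.15 and -0.14. Between the parental lines the lists had medians of 0.17 and -0.04. Of the 25 genes of S phase, 17 were above 0 in the C4-2B pair, 11 in the LNCaP pair and 20 between the parental lines. Of the 20 genes of G2 and mitosis, 14, 5 and 9 were above 0 in the same order of comparisons. Of the 42 repair genes, 20, 16 and 14 were. Over all genes analysed, 7761 of 15527, 7625 of 15373 and 7571 of 15580 were. The part of cell cycle distribution in the ratios of the repair genes was not tested.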

How the data were processed

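Stranded mRNA libraries were made from total RNA of 4 cell lines, with 1 library each. The authors deposited estimated counts per gene, not scaled between libraries. Per the labels, STAR and Partek were used with GRCh38, and the annotation, versions and counting method are not given in the sources used here. Of the deposited values, 46.0% are not whole numbers, and every gene sums to at least 10.0 over the libraries. Of the 42 members, 18 have a value more than 0.05 from a whole number in some library, and how reads that match several genes were divided is not given in the sources used here. In GENCODE release 29, exons of 19 of the 42 members overlap those of another gene in the table, 16 of them on the other strand.

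Counts were rounded and scaled by TMM in edgeR 4.0.16 (R 4.3.3), and ratios and 95% intervals (normal, from Poisson counts, and Wilson for levels) were computed in Python 3.11.15 with a pseudocount of 0.5. No count model was fitted because a group is 1 library. A gene was analyzed where its mean over both libraries reached 1 normalized CPM, and a gene counts as called at 1.5-fold. The ratio and interval code was tested on simulated data.

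The members and lists were chosen with earlier results of these data known. Values in every library are given for BRCA1, BRCA2, PALB2, ATM, CDK12, RAD51B and RAD51C, for members past 1.5-fold in a pair, for the 3 highest and 3 lowest ratios per pair, and for members whose intervals exclude 0 in opposite directions. Of other pathway genes, those past 1.5-fold in a resistant-parental pair are named. BRIP1 in all lines was added after its values were seen. Alternatives were total count, DESeq2 1.42.0 and upper quartile scaling, a pseudocount of 2, minimum means of 0.1 or 10 or none, and a fold of 2. A gene of the list of other pathway genes that had no entry under its listed name was not analysed here.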

Additional observations from a re-analysis of the deposited data

Results flagged for a closer look

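For 7 of the 42 genes, the resistant line differed from its parent in opposite directions in the C4-2B and LNCaP pairs, with both counting intervals excluding 0. The same held for 16.3% of the 14602 genes analysed in both pairs, a share near that of the 42 genes. The difference between the pairs is given as the log2 ratio of the C4-2B pair minus that of the LNCaP pair, with its 95% counting interval. With 1 library per line the difference was not tested against the spread between cultures. It was -0.71 (-0.97 to -0.46) for RAD51D, -0.60 (-0.80 to -0.39) for MRE11 and -0.34 (-0.48 to -0.21) for XRCC3, which were lower in 2B-OlapR and higher in LN-OlapR. It was 0.63 (0.44 to 0.82) for FANCC, 0.51 (0.40 to 0.62) for CDK12, 0.39 (0.19 to 0.59) for FANCF and 0.34 (0.20 to 0.48) for TOP3A, which were higher in 2B-OlapR and lower in LN-OlapR.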

How the results depend on the processing

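Of 90 recomputed counts and medians, 83 stayed within 1.5 times the reported count or, for a median, within a 95% interval taken from the ranks of the members. With a minimum mean of 10 normalized CPM, 1 member in place of 3 was lower by 1.5-fold in the C4-2B pair, as RAD51B and RAD52 fell under that filter. With a fold of 2, the counts were 0 lower in the C4-2B pair, 0 higher in the LNCaP pair, and 0 higher and 0 lower between the parental lines. With scaling by total counts, 0 members were higher and 1 was lower by 1.5-fold in the LNCaP pair. This scaling moved the median of all genes to -0.09 in the LNCaP pair and that of the 42 genes to -0.18. Of the recomputed ratios of genes with values in every library, 251 lay within the counting interval of the reported ratio and 1, CDK12 in the LNCaP pair with total counts, lay outside it at -0.37. None changed the sign of a ratio whose interval excluded 0. The number of members with intervals on opposite sides of 0 in the LNCaP and C4-2B pairs was 7 with total counts, where BRCA1 and BARD1 took the place of MRE11 and FANCF, and 8 with DESeq2 or upper quartile scaling. No replicate could be left out, as each line has 1 library. Each resistant line was compared with its own parent, and no paired test was run. A fit that takes both backgrounds as replicates of resistance was not run. The depth limits RAD51B most, with 64 to 122 counts.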

Other observations

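ATM lies head to head with NPAT, a coactivator of histone gene transcription, and the genes are known to share a promoter region. NPAT, looked up after the values of ATM were seen, stood at 23.8 normalized CPM in LNCaP against 18.6 in LN-OlapR, and at 16.4 in C4-2B against 13.7 in 2B-OlapR. ATM stood at 46.0, 34.9, 27.1 and 23.6 in the same order of lines, so the lines had the same order for both genes. The NPAT log2 ratio was -0.36 in the LNCaP pair, -0.26 in the C4-2B pair and -0.54 between C4-2B and LNCaP. Exons of ATM and NPAT overlap on opposite strands, and the part of shared reads in this was not tested.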
